A study of Mus musculus with 2 samples.

Results

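Ccl17, Ccl22 and Ccl24, which encode chemokines of type 2 immunity, and Ccr7 and Ccr4, which encode receptors for chemokines, were followed across the leukocytes of mouse melanomas. The 5 genes were taken by symbol from the 32285 genes of the deposited count tables. CCL17 and CCL22 are both ligands of CCR4, a receptor of T helper 2 cells, regulatory T cells and skin-homing T cells. CCR7 steers mature dendritic cells (DCs) and naive lymphocytes towards its ligands CCL19 and CCL21 in lymphatic vessels and lymph nodes. CCL24, also called eotaxin-2, attracts eosinophils through their receptor CCR3. IL-4, acting through the transcription factor STAT6, is known to induce Ccl17, Ccl22 and Ccl24 in macrophages and DCs.

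The libraries were made with 10x Genomics droplets from CD45-positive cells, that is, leukocytes, sorted by flow cytometry out of subcutaneous tumours of B16F10, a transplantable mouse melanoma line. There were 2 libraries, both of genotype WT and 1 per group. The control group had received bone-marrow-derived macrophages (BMDMs) without treatment, and the IL4 group BMDMs treated with IL4. The treatment label gives these groups, but the protocol label names IL4-treated BMDMs for each library, so the 2 labels differ. The sources used here do not say how many mice went into a library, and transferred and host macrophages could not be told apart. With 1 library per group there is no replicate check and no test. Each interval below is an exact 95% interval that covers counting error only.

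After filtering, 8937 control and 13762 IL4 barcodes remained, with 9207 and 8256.5 UMIs (unique molecular identifiers, that is, counted RNA molecules) in the median barcode. Barcodes were sorted into leukocyte types by panels of marker genes that hold none of the 5 genes. Of kept barcodes 19.7% and 19.99% reached no type (ungated), and 20.2% and 19.9% scored as monocyte or macrophage with no clear lead (undivided). Defining genes were high in the gates that carry their names: Fscn1 stood at 1767 and 1765 CPM (UMIs per 1000000 UMIs of the type) in the mature migratory DC gate, against 96.0 and 109 CPM in all kept barcodes of the control and IL4 libraries. C1qa stood at 1787 and 1842 CPM in the macrophage gate against 409 and 411 CPM, and Cd3e at 303 and 293 CPM in the T cell gate against 20.9 and 24.3 CPM. A gate is a range of a score, not a sharp class: 14 of 328 and 18 of 599 mature DC-gated barcodes lay within 0.1 of a limit, as did 210 of 1381 and 266 of 1971 macrophage-gated ones. Barcodes of the T and NK gates that also carried many myeloid transcripts were set apart as mixed (376 control, 802 IL4). Barcodes with Xist, the RNA of the silenced X chromosome, and no Y-linked transcript are called Xist-only, and the converse Y-only. Y-only barcodes made up 36.8% of sexed control and 10.9% of sexed IL4 barcodes, so values within each kind are given beside the main results.

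The genes of both CCR4 ligands lie near each other, and the bases before their starts are shown because Ccl17 and Ccl22 UMIs occurred in the same DCs. In the mm10 build, GENCODE release M21 places Ccl22 (ENSMUSG00000031779) at chr8:94745590-94751699 and Ccl17 (ENSMUSG00000031780) at chr8:94810453-94812036, both on the plus strand. The 58753 bases between them hold Cx3cl1, the gene of the chemokine fractalkine (chr8:94772009-94782427). Ccl24 (ENSMUSG00000004814) lies at chr5:135569937-135573049, Ccr4 (ENSMUSG00000047898) at chr9:114490316-114504916 and Ccr7 (ENSMUSG00000037944) at chr11:99144196-99155077, all 3 on the minus strand. RefSeq promoters of build GRCm38.p6 matched Ccl17, Ccl22 and Ccr4. The plus strand is printed 5′ to 3′ over chr8:94810203-94810452 for Ccl17 and over chr8:94745434-94745589 for Ccl22, the second ending before the start that GENCODE gives. Capitals mark matches on either strand to 4 motifs: TTCNNNNGAA, the spacing that STAT6 is known to prefer, TTCNNNGAA, that of other STAT factors, GGGNNNNNCC, the outline of NF-kB sites, and TGANTCA, that of AP-1 sites.
Ccl17: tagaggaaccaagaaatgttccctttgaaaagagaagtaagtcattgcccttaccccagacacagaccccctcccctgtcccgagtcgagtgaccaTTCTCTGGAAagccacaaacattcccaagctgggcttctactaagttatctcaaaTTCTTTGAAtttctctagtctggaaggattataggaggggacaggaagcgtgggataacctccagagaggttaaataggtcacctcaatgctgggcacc
Ccl22: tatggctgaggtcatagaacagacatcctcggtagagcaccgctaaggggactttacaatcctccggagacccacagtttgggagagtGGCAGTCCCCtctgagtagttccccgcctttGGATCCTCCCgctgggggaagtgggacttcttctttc
Ccl17 held 1 match to TTCNNNNGAA, at base -154 from its RefSeq start, and 1 to TTCNNNGAA, at base -99. Of 32851 RefSeq promoters, 5.85% held the first motif and 7.02% the second within the same 250 bases. Ccl22 held 2 matches to GGGNNNNNCC, at bases -162 and -131 from its RefSeq start, a motif found in 45.8% of promoters. That start, chr8:94745684, lies past the end of the printed Ccl22 stretch. The bases between them belong to the 250 compared but are not printed. No TGANTCA match, present in 6.75% of promoters, lay in either window. A match is a description of letters, not a binding site.

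Over whole libraries 1 of the 5 genes, Ccl24, differed by 1.5-fold or more. Such a difference, taken on CPM plus 1 among genes with at least 20 UMIs, was seen for 2.0% of 17287 genes (1.01% higher and 0.983% lower in IL4). Ccl24 stood at 123 CPM in the control and 43.8 CPM in the IL4 library, 2.81-fold lower (2.72 to 2.90). Ccl17 stood at 36.8 and 41.1 CPM, Ccl22 at 63.3 and 78.3 CPM and Ccr7 at 153.5 and 184 CPM, which are 1.12-fold, 1.24-fold and 1.20-fold higher in the IL4 library. Among Y-only barcodes 2 of these also passed 1.5-fold: Ccl17 stood there at 38.6 and 77.5 CPM, 2.01-fold higher (1.84 to 2.20), and Ccr7 at 138 and 253 CPM, 1.83-fold higher (1.75 to 1.92). Among Xist-only barcodes the folds were 1.10 and 1.14. Ccr4 was rare, with 24 and 54 UMIs in all, at 0.252 and 0.406 CPM. Its fold without the added 1 CPM was 1.61 (0.981 to 2.73). At such levels the added 1 CPM left it little room to pass 1.5-fold, so its difference was not decided here. Levels over all leukocytes also carry the share of each cell type, and fewer cells of a type cannot there be told apart from less RNA per cell.

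Within the 14 types the genes differed in how often they passed 1.5-fold, and the share of all genes that did so is given for each type as background. Ccl17 was higher in 4 of 11 types with at least 20 of its UMIs (classical monocytes, conventional DCs type 1 or cDC1, mixed barcodes and macrophages) and lower in 1 (neutrophils). Ccl22 was higher in 5 of 13 (NK cells, cDC1, mixed barcodes, macrophages and non-classical monocytes) and lower in 0. Ccr7 was higher in 7 of 14 and lower in 0, and Ccl24 lower in 12 of 14 and higher in 1. Some of these calls reached 20 UMIs through 1 library alone, so their direction was largely set by that limit. Ccl17 had 13 control and 46 IL4 UMIs in classical monocytes and 32 and 3 in neutrophils. Ccl22 had 9 and 53 in non-classical monocytes and 3 and 24 in NK cells, where its fold was 2.98 (0.906 to 15.5). Ccl24 had 40 and 2 in B cells. Among all genes, 4.05% were higher by that much in mature migratory DCs, 4.17% in type 1 and 2.34% in type 2 conventional DCs, 7.36% in plasmacytoid DCs, 2.71% in macrophages and 2.78% in undivided monocyte-macrophage barcodes. The share higher was 3.09% in classical and 5.87% in non-classical monocytes, 8.07% in neutrophils, 8.94% in B cells, 4.31% in T cells, 6.06% in NK cells, 2.57% in mixed and 5.18% in ungated barcodes. The share of genes lower was 5.48% in mature migratory DCs, 5.07% and 4.22% in type 1 and type 2 conventional DCs, 9.66% in plasmacytoid DCs, 4.41% in macrophages and 2.47% in undivided barcodes. It was 3.41% and 6.13% in classical and non-classical monocytes, 11.6% in neutrophils, 19.0% in B cells, 5.39% in T cells, 7.09% in NK cells, 3.35% in mixed and 2.27% in ungated barcodes. The 12 types with less Ccl24 thus include every type but NK cells and neutrophils.

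**Figure D1:**
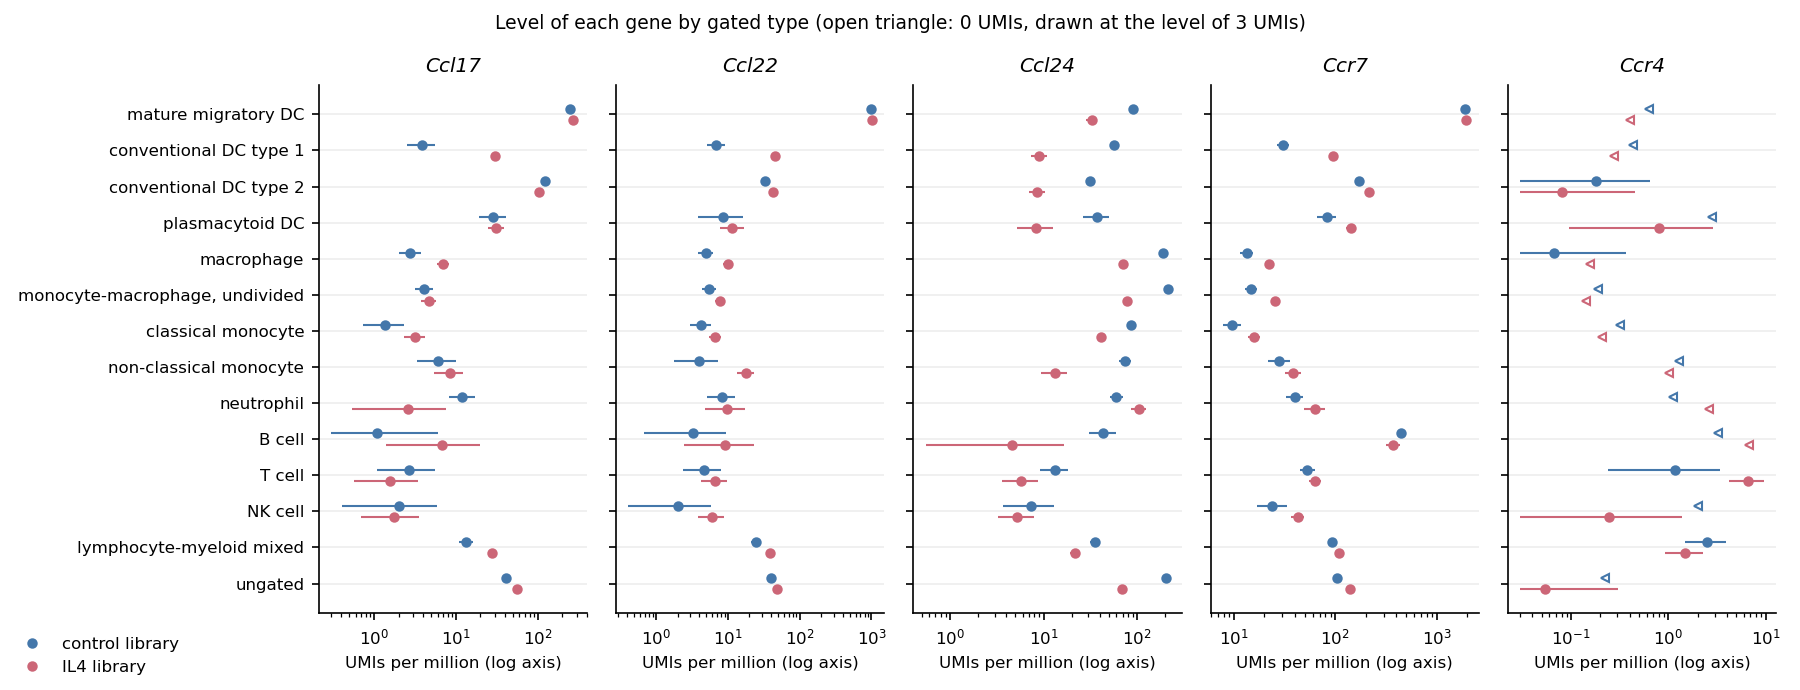
Level of each gene in CPM (log axis) in 14 gated types of the control and IL4 libraries, with exact 95% intervals of the counts as bars, cut at the left edge for Ccr4. Ccl17, Ccl22 and Ccr7 were highest in the mature migratory DC gate of both libraries, and Ccl24 was lower in the IL4 library in every type drawn except neutrophils.

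Ccl22, the CCR4 ligand typical of mature DCs, was far higher in the mature migratory DC gate than in any other type. Its level there was 979 CPM (951 to 1008) without and 1002 CPM (979 to 1025) with IL4-treated BMDMs, a ratio of 1.02 (0.986 to 1.06). The other single types were far below. Conventional DCs type 2 (cDC2, the DCs that present antigen mainly to CD4 T cells) stood at 33.4 and 42.4 CPM, cDC1 at 6.89 and 45.2 CPM and macrophages at 4.89 and 10.1 CPM. Barcodes were also clustered without the 5 genes, and in the cluster named cDC2 Ccl22 stood at 31.9 and 57.2 CPM, 1.79-fold higher in IL4 (1.60 to 2.01). The fold of 1.27 in the cDC2 gate was smaller than the folds within both sexed kinds. In Xist-only cDC2 Ccl22 stood at 17.8 and 39.0 CPM, 2.19-fold higher in IL4 (1.75 to 2.77), and in Y-only cDC2 at 41.1 and 80.4 CPM, 1.96-fold higher (1.504 to 2.54). In the cDC2 of neither kind, 137 control and 135 IL4 barcodes, it stood at 58.6 and 31.7 CPM, and 47 of the 141 control UMIs lay in a single barcode. Mature DC-gated barcodes held 76.7% and 70.8% of all Ccl22 UMIs, although they were 3.67% and 4.35% of barcodes. After thinning to 1000 UMIs a barcode, 41.7% of control and 45.9% of IL4 mature DCs had a Ccl22 UMI (78.0% and 81.0% unthinned). In T cells, which should lack the gene, the thinned shares were 0.472% and 1.60%. Median depths were 13903.5 and 11344 UMIs in mature DCs and 7612 and 7281 UMIs in T cells. The median mature DC had 5 Ccl22 UMIs in each library, and the 38.1% and 37.4% with 10 or more held 89.4% and 86.6% of the gene's UMIs in that gate. The ratio depended on the sexed kind: in Xist-only mature DCs Ccl22 stood at 968 and 1039 CPM, and in Y-only ones at 1369 and 1012 CPM, from 92 and 72 barcodes.

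Ccl17, the other CCR4 ligand, was highest in mature migratory DCs and cDC2 among the single gated types. Control mature DCs stood at 250.2 CPM (236 to 265) and IL4 ones at 273 CPM (261 to 285), 1.09-fold higher (1.02 to 1.17). Control cDC2 stood at 124.6 CPM (118 to 131) and IL4 cDC2 at 104 CPM (98.7 to 110.2), 1.19-fold lower in the IL4 library (1.11 to 1.29). Neither difference came to 1.5-fold, and within the sexed kinds they diverged. In cDC2 Ccl17 stood at 126.9 and 86.4 CPM in Xist-only and at 105 and 167 CPM in Y-only barcodes. In Y-only mature DCs it stood at 306 and 499 CPM, 1.63-fold higher (1.42 to 1.87), and in Xist-only ones at 244 and 259 CPM. Mature DCs held 33.7% and 36.7% of all Ccl17 UMIs and cDC2 39.2% and 23.7%. In the cluster named cDC2, Ccl17 stood at 100.7 and 97.3 CPM, a fold of 0.966 (0.899 to 1.04). An unnamed cluster led by Retnla, Lyz1 and Fcrls also had much Ccl17, at 102 and 196 CPM, 1.92-fold higher in IL4 (1.64 to 2.26). It held 5.86% and 11.5% of all Ccl17 UMIs in 155 and 275 barcodes. Ccl22 stood there at 17.8 and 62.5 CPM, 3.51-fold higher (2.45 to 5.15).

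Ccl17 was carried by few barcodes with many UMIs. In mature DCs 31 of 328 control and 51 of 599 IL4 barcodes had 10 or more Ccl17 UMIs, and they held 83.3% and 83.4% of the gene's UMIs there. In cDC2, 29 of 727 and 35 of 972 barcodes did so and held 83.8% and 71.2%. The thinned shares with a Ccl17 UMI were 11.3% and 12.1% in mature DCs and 5.37% and 5.15% in cDC2, against 0% of 212 and 0.266% of 376 T cells. That count of 0 allows a share of up to 1.42% of control T cells. Within mature DCs Ccl17 was almost nested in Ccl22: of control barcodes 110 had UMIs of both, 4 had Ccl17 only and 146 Ccl22 only, and of IL4 barcodes 172, 6 and 313. In cDC2 this was not so, with 36 barcodes positive for both, 69 for Ccl17 only and 61 for Ccl22 only in the control, and 76, 91 and 112 in the IL4 library. All but 1 of the 110 control and all but 2 of the 172 IL4 mature DCs with both ligands also had a Ccr7 UMI.

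**Figure D2:**
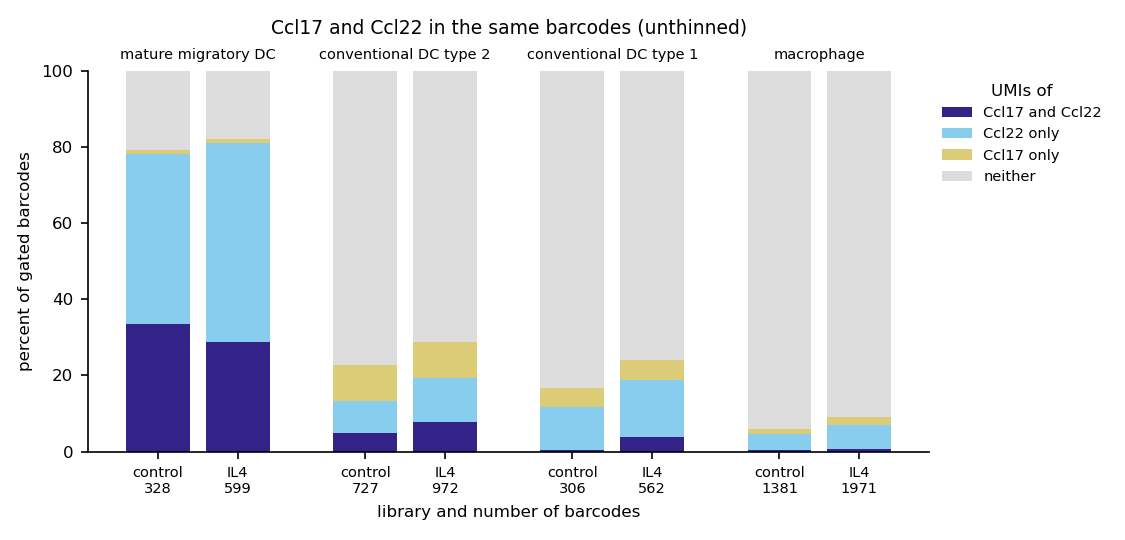
Percent of gated barcodes with UMIs of both CCR4 ligands, of 1 of them or of neither, unthinned, in 3 DC gates and the macrophage gate of each library. Barcodes with Ccl17 but no Ccl22 were 4 of 328 control and 6 of 599 IL4 mature DCs, against 69 of 727 and 91 of 972 cDC2.

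**Figure D3:**
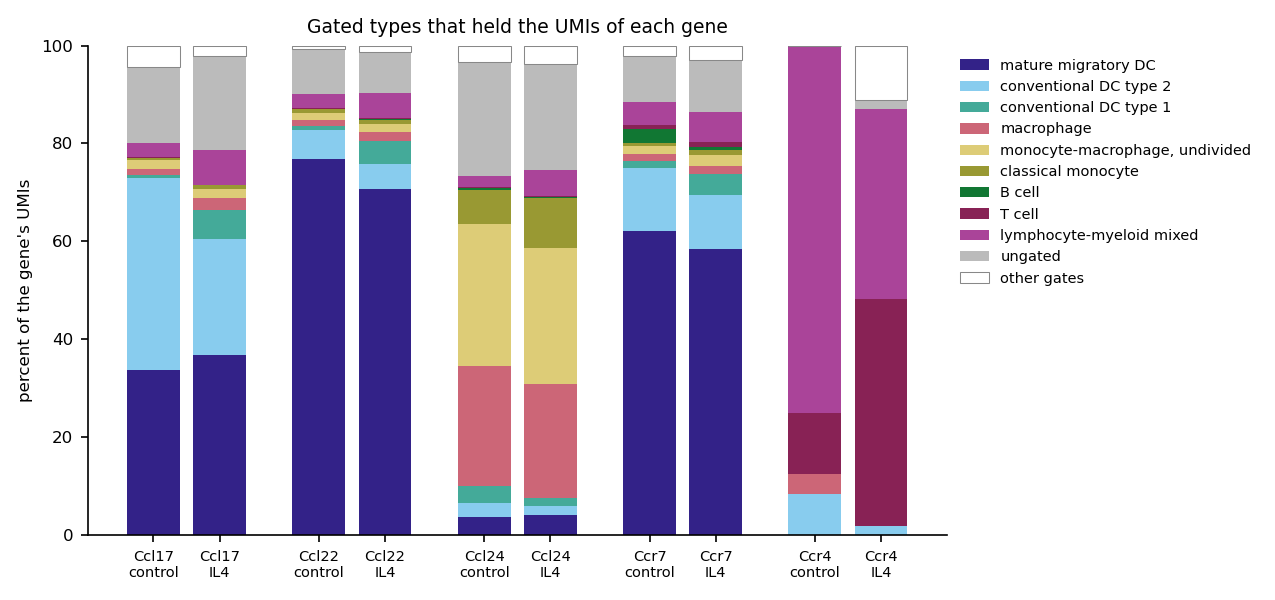
Share of the UMIs of each gene held by each gated type, in percent, 1 bar per gene and library. Mature migratory DCs held most Ccl22 and Ccr7, mature DCs and cDC2 together most Ccl17, and T cell and mixed barcodes most Ccr4.

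In cDC1, which cross-present antigen to CD8 T cells, Ccl17, Ccl22 and Ccr7 were all higher in the IL4 library and Ccl24 lower. All 4 genes tested there passed 1.5-fold, against 9.24% of 11971 genes (4.17% higher, 5.07% lower). Ccl17 stood at 3.87 CPM (2.55 to 5.64) in control cDC1 and at 30.1 CPM (26.9 to 33.5) in IL4 cDC1, 7.76-fold higher (5.23 to 11.96). Ccl22 stood at 6.89 and 45.2 CPM, 6.57-fold higher (4.88 to 9.03), and Ccr7 at 30.6 and 95.2 CPM, 3.11-fold higher (2.68 to 3.63). The differences rested on a small number of barcodes: 8 of 562 IL4 barcodes, and 0 of 306 control barcodes, had 10 or more Ccl17 UMIs, and those 8 held 73.2% of the Ccl17 there. Thinned shares were 1.96% and 2.86% for Ccl22 and 2.29% and 5.71% for Ccr7. For Ccl17 they were 0% of 306 control barcodes, which allows up to 0.98%, and 1.61% of 560 IL4 barcodes. Barcodes with UMIs of Ccl17, Ccl22 and Ccr7 together numbered 0 of 306 and 19 of 562. The 3 genes were higher in both sexed kinds: Ccr7 stood at 39.9 and 79.3 CPM in Xist-only and at 23.3 and 229 CPM in Y-only cDC1, the last from 35 barcodes. Ccl24 stood at 57.2 and 8.97 CPM in cDC1, and 244 of its 399 control UMIs lay in a single barcode. In Xist-only cDC1 it stood at 7.36 and 8.01 CPM.

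Other genes of DC maturation were also higher in the IL4 cDC1. Of 24 such genes tested in cDC1, 10 were higher in the IL4 library and 0 were lower. Their median log2 ratio was 0.49, against -0.03 over all genes. Among them Fscn1, which bundles actin in mature DCs, stood at 3.73 and 15.3 CPM, the chemokine Ccl5 at 102 and 311 CPM, the amino-acid oxidase Il4i1 at 2.58 and 9.80 CPM, and Socs2, a brake on cytokine signalling, at 2.87 and 9.80 CPM. Of the maturation genes, Fscn1, Cacnb3, Nudt17, Socs2, Cd200, Il4i1, Tmem123, Relb and Samsn1 also belong to the mature migratory DC panel used for gating. The counts for that panel and for the maturation genes are thus not separate. The summed level of the 14 mature migratory DC panel genes in the cDC1 gate was 292 and 420 CPM, with 7 of 11 tested genes higher. That of the 10 cDC1 panel genes was 3741 and 3185 CPM. The part of other mature DC transcripts in the cDC1 difference was not tested. The mature DC gate was itself set on some of the maturation genes in both libraries. In it 9.53% of 11140 genes passed 1.5-fold, and 2 of 24 maturation genes were higher and 0 lower (median 0.08, all genes -0.01). The 2 were Il12b, a subunit of IL-12 (333 and 607 CPM), and Ccl5 (3628 and 5590 CPM). In cDC2, with a background of 6.56%, 4 of 23 were higher and 0 lower (median 0.24 against -0.07).

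Mature DCs were then divided by which conventional DC panel scored higher in them. The type 2 side was the larger, with 296 of 328 control and 530 of 599 IL4 barcodes. Within 0.1 of the division lay 20 and 35 barcodes of that side and 6 and 20 of the type 1 side. Ccl17 stood at 261 and 291 CPM on the type 2 side and at 127 and 115 CPM on the type 1 side. Ccl22 stood at 946 and 974 CPM on the type 2 side and at 1344 and 1254 CPM on the type 1 side. Each gene thus kept its order between the sides in both libraries, Ccl17 higher on the type 2 side and Ccl22 on the type 1 side, from 32 and 69 type 1 barcodes. Between the libraries neither side showed a fold whose interval excluded 1 for Ccl22, and for Ccl17 the type 2 side was 1.11-fold higher in IL4 (1.03 to 1.20).

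Ccr7, the homing receptor, was highest in mature migratory DCs and differed little there between the libraries. Control mature DCs had 1920.1 CPM (1881 to 1960.0) and IL4 mature DCs 1949 CPM (1917 to 1981), so the ratio was 1.01 (0.988 to 1.04). A Ccr7 UMI was found in 80.7% and 78.4% of thinned mature DCs, and in 97.6% and 97.5% unthinned. The middle barcode had 26 and 22 Ccr7 UMIs. The order of levels below mature DCs was B cells (444 and 369 CPM), cDC2 (173 and 217 CPM) and plasmacytoid DCs (82.3 and 143 CPM), with intervals that did not overlap between these 4 types in either library. T cells followed in the control, at 53.1 CPM, with an interval that overlapped that of neutrophils (39.7 CPM). In the IL4 library T cells (63.1 CPM) came after cDC1 (95.2 CPM). The lowest levels in both libraries were those of classical monocytes (9.70 and 15.9 CPM) and macrophages (13.4 and 22.2 CPM).

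Below the mature DCs, Ccr7 tended to be higher in the IL4 library. The 7 types past 1.5-fold were NK cells, classical monocytes, cDC1, macrophages, undivided barcodes, neutrophils and plasmacytoid DCs. In macrophages the fold was 1.66 (1.40 to 1.97), in classical monocytes 1.64 (1.29 to 2.12) and in plasmacytoid DCs 1.74 (1.37 to 2.22). Thinned shares in macrophages were 0.952% and 1.74% and in classical monocytes 0.844% and 1.28%. The part of free RNA at such low shares was not tested. In Y-only macrophages Ccr7 stood at 7.55 and 7.17 CPM, and in Xist-only ones at 12.4 and 20.6 CPM. In cDC2 more barcodes had the gene in the IL4 library: 12.3% and 16.5% thinned, 33.7% and 49.7% unthinned, with a fold in CPM of 1.25 (1.18 to 1.33). That fold was 1.27 (1.17 to 1.38) in Xist-only cDC2, at 158 and 201 CPM, and 2.27 (1.998 to 2.59) in Y-only cDC2, at 151 and 344 CPM. In B cells a thinned share of 34.0% of control and 29.1% of IL4 barcodes had a Ccr7 UMI, and the fold of 0.831 had an interval from 0.688 to 0.999. In T cells the fold was 1.19 (0.959 to 1.48), with 43.3 and 60.9 CPM in Xist-only and 56.6 and 13.3 CPM in Y-only barcodes, the last from 8 UMIs.

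The ligands of CCR7 were nearly missing from these sorted leukocytes. Ccl19 had 2 control and 9 IL4 UMIs, Ccl21a 1 and 0, and Ccl21b and Ccl21c 0 in both. The same list held the genes of atypical chemokine receptors, Ackr1 to Ackr4, whichever chemokines they bind. Of these, Ackr3 stood at 1.95 and 0.68 CPM, past 1.5-fold, and Ackr4 at 0.14 and 0.10 CPM. These were the 2 genes of the list's 8 that could be tested over all barcodes, and their median log2 ratio was -0.43 against -0.03 over all genes.

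Ccr4, the receptor of CCL17 and CCL22, was detected in few barcodes and mainly in T cells. Only 15 control and 36 IL4 barcodes had a UMI of it. The T cell gate and the mixed barcodes together held 21 of 24 control and 46 of 54 IL4 UMIs. The T cell gate alone held 3 and 25 UMIs, which is 1.16 CPM (0.240 to 3.40) against 6.55 CPM (4.24 to 9.66) and a ratio of 5.63 (1.72 to 29.1), and 7 of the IL4 UMIs lay in a single barcode. A Ccr4 UMI was found in 0.472% and 1.33% of thinned T cells (1.41% and 4.77% unthinned). In the T cell gate 9.7% of 10759 genes passed 1.5-fold, 4.31% upwards. Ccr4 reached the 20 UMIs needed for this in the gate through the IL4 library alone. With the mixed barcodes left in the gate the counts were 21 and 46 UMIs and the log2 ratio was 0.31 in place of 1.80, so the size of the difference depended on where the mixed barcodes were counted. The mixed barcodes alone had 18 and 21 UMIs. In mature DCs 0 Ccr4 UMIs were seen in either library, which allows up to 0.634 and 0.409 CPM.

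Within the T cell gate, the summed Ccr4 level was highest among barcodes with Cd4 or Cd40lg UMIs and no Foxp3 or Cd8 UMI, from few UMIs. These stood at 10.3 CPM (3 UMIs in 43 barcodes) and 46.0 CPM (13 UMIs in 45 barcodes). Barcodes with Cd8a or Cd8b1 had 0 UMIs in 102 control and 1 UMI in 203 IL4 barcodes. Barcodes with Foxp3, the regulator of regulatory T cells, had 0 UMIs in 19 control and 5 UMIs in 16 IL4 barcodes of the gate, and 5 in 30 and 11 in 39 mixed ones. Of all Ccr4-positive barcodes, 4 of 15 and 8 of 36 carried a Foxp3 UMI and 4 and 7 a Ccr7 UMI. Of 10 T helper 2 and regulatory T cell genes tested in the gate, 0 were higher in the IL4 library and 2 lower (median log2 ratio 0.16, all genes -0.01). The 2 were Ccr8, a receptor often found beside CCR4, at 11.6 and 4.98 CPM, and Foxp3, at 16.3 and 9.69 CPM.

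Ccl24, the eosinophil attractant, was a gene of monocytes and macrophages here and was lower in the IL4 library. Control macrophages stood at 189.8 CPM (183 to 197) and IL4 macrophages at 70.8 CPM (67.1 to 74.7), 2.68-fold lower (2.51 to 2.86). Of macrophage barcodes 7.10% and 2.82% had a Ccl24 UMI after thinning (25.9% and 13.2% unthinned). In T cells, which should lack the gene, 0.943% and 0.266% did, and in NK cells 0.559% and 0.211%. The median macrophage had 10173 and 9061 UMIs. Undivided monocyte-macrophage barcodes, whose best panel was 1 of these types but led by too little, stood at 214 and 77.5 CPM, and classical monocytes at 85.3 and 41.3 CPM. Macrophages had the highest level of the 11 single gated types in the control, with an interval apart from the rest. In the IL4 library the highest was the neutrophil gate.

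Neutrophils were the 1 type in which Ccl24 passed 1.5-fold upwards. It stood there at 60.0 and 104.8 CPM, but the 5 barcodes with most of it held 66.9% and 81.7% of the UMIs, and thinned shares were 3.50% and 3.06%. The NK cell difference, 7.32 and 5.21 CPM, stayed under 1.5-fold. Types that should lack the gene also had less of it in the IL4 library: T cells had 13.2 and 5.76 CPM and B cells 43.3 and 4.56 CPM, 28 of the 40 control B cell UMIs being in a single barcode. In mature DCs 5 barcodes held 91.8% and 80.3% of the Ccl24 UMIs. The part of free macrophage RNA in these levels was not tested.

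The UMIs of Ccl24 were concentrated in few macrophages. In the control library 47 of 1381 macrophage barcodes had 10 or more and held 75.3% of the gate's Ccl24, with 380 UMIs in the highest. In the IL4 library 35 of 1971 had 10 or more and held 66.1%, with 75 in the highest. Without the 5 barcodes with most Ccl24 in each library the log2 ratio was -1.02 in place of -1.41. In Xist-only macrophages Ccl24 stood at 117.7 and 57.3 CPM and in Y-only ones at 273 and 114 CPM, so it was lower in the IL4 library within each kind. Y-only macrophages were above Xist-only ones in both libraries.

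Clusters of barcodes, made without the 5 genes, placed the highest Ccl24 in cells led by Spp1, Lpl and Mmp12, genes of lipid-handling macrophages. That cluster stood at 859 CPM in the control and 251 CPM in the IL4 library, 3.42-fold lower (3.12 to 3.75). It held 34.5% of control Ccl24 UMIs in 335 barcodes and 9.03% of IL4 ones in 183 barcodes. A cluster led by Arg1, the gene of arginase, and Egln3, a gene raised in hypoxia, stood at 272 and 207 CPM. A cluster led by the C1q genes and Ms4a7 stood at 71.6 and 45.6 CPM, and 1 led by Mgst1 and Ace, which was named classical monocytes, at 61.9 and 20.8 CPM. A cluster led by Cxcl1 and Il1a did not follow: it stood at 95.6 and 104 CPM, a fold of 1.09 (0.991 to 1.20), and its share of the Ccl24 UMIs was 4.78% and 27.1%. In 8 clusters at least 50% of barcodes came from the monocyte and macrophage gates. They are no single class: 4 of them matched no panel well enough for a name, 1 of these being led by the immunoglobulin genes Iglv1 and Jchain, and a cluster named macrophage was led by the pigment genes Pmel, Dct and Tyr beside Lyve1. Over these 8 clusters the level was 194.6 and 73.7 CPM. With the control clusters weighted to the sizes they had in the IL4 library the control level was 124.6 CPM and the ratio 1.69-fold in place of 2.64-fold. Over the 3 clusters named macrophage or classical monocyte and not led by pigment genes, the level was 197 and 45.8 CPM, and the same weighting gave 2.41-fold in place of 4.30-fold.

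**Figure D4:**
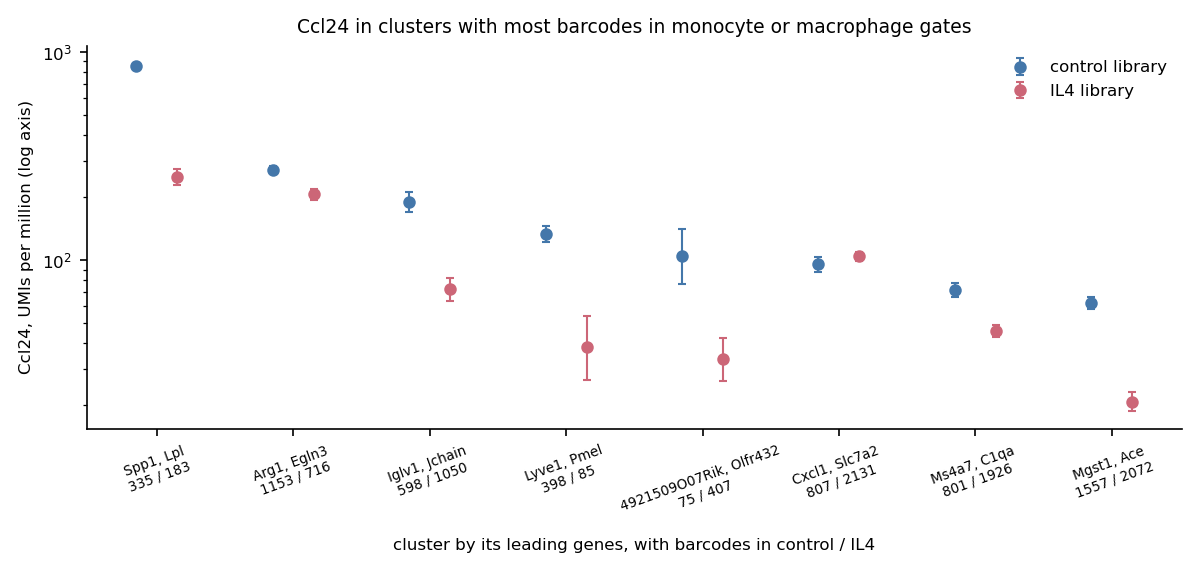
Ccl24 in CPM (log axis) with exact 95% intervals in the 8 clusters with most of their barcodes in monocyte or macrophage gates, 4 of them unnamed, each marked by 2 leading genes and its barcodes in the control and IL4 libraries. The cluster led by Spp1 and Lpl stood at 859 and 251 CPM, and the cluster led by Cxcl1 at 95.6 and 104 CPM.

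Few UMIs of the receptor side of CCL24 were found in the kept barcodes, and how well eosinophils were recovered was not tested. Ccr3 had 38 control and 43 IL4 UMIs (0.398 and 0.324 CPM), and Epx, a granule gene of eosinophils, 0 and 1 UMI. Of the other eosinophil panel genes, Siglecf had 48 and 88 UMIs, Il5ra 19 and 10 and Prg2 6 and 11. Ear1 had 4 and 4, Ear6 1 and 0 and Prg3 1 and 2. The eosinophil gate took 15 and 25 barcodes and is not described as a type. Of 8 tested genes of the CCR3 and eosinophil chemokine list, 3 were higher over all barcodes and 0 lower (median 0.22, all genes -0.03). The 3 were Ccl5 (527 and 1014 CPM), Ccl7 (563 and 861 CPM) and the eosinophil growth factor Il5, which had 12 and 150 UMIs. Il5 reached the limit of 20 UMIs through the IL4 library alone. Among all genes over all barcodes 1.01% were higher and 0.983% lower.

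Other genes that IL-4 and STAT6 are known to induce went both ways in macrophages. There 7.12% of 12915 genes passed 1.5-fold, with a median log2 ratio of -0.10. Of 19 such genes tested 2 were higher and 2 lower in the IL4 library, with a median of -0.17. The lower ones were Retnla, a secreted product of alternatively activated macrophages (202 and 54.0 CPM), and the lectin gene Mgl2 (60.7 and 26.9 CPM). The higher ones were Egr2, a transcription factor gene (85.9 and 151.8 CPM), and Cish, a brake on STAT signalling (23.1 and 36.4 CPM). Ccl17, which belongs to the same group by background, stood at 2.78 and 7.07 CPM in macrophages, 2.55-fold higher (1.79 to 3.69). Ccl22 was 2.06-fold higher there (1.57 to 2.73). Of the Ccl17 UMIs in IL4 macrophages 47.4% lay in 2 barcodes, and thinned shares were 0.366% and 0.512%. In Y-only macrophages Ccl17 stood at 1.65 and 1.66 CPM, from 7 and 3 UMIs. All 4 of the genes tested in macrophages thus passed 1.5-fold, Ccl17, Ccl22 and Ccr7 upwards and Ccl24 downwards, against 2.71% of genes higher and 4.41% lower.

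Of 12 other CC chemokines tested in macrophages, 5 were higher in the IL4 library and 0 lower (median log2 ratio 0.46). Among all genes there 2.71% were higher and 4.41% lower. Ccl1, the ligand of CCR8, had 0 control and 68 IL4 UMIs, Ccl5 stood at 162 and 386 CPM, Ccl4 at 3288 and 6481 CPM and Ccl7 at 1410 and 2352 CPM. Ccl1 reached the limit of 20 UMIs through the IL4 library alone. In mature DCs 6 of 11 other CC chemokines were higher and 0 lower (median 0.62), while Ccl22 and Ccl17 stayed within 1.5-fold. Among all genes there 4.05% were higher and 5.48% lower. Ccl5 and Ccl7 also belong to the CCR3 and eosinophil chemokine list, and Ccl5 to the maturation genes. The counts for these lists are thus not separate. Of the 10 CC and XC receptors other than Ccr7 and Ccr4, 6 were tested in macrophages, with 1 higher (Ccr9, 1.06 and 2.31 CPM) and 0 lower and a median of 0.23. In mature DCs 6 were tested, with 0 higher and 1 lower (Ccr6, 7.19 and 3.68 CPM).

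Likeness between patterns was measured with Pearson's r of log2 levels over 22 points, the 11 single gated types of both libraries, among 8624 genes. The points share libraries and depth, so r is a description. Ccl17 and Ccl22 were alike (r = 0.87), Ccr7 was closer to Ccl22 (r = 0.77) than to Ccl17 (r = 0.71), and Ccl24 ran with none of the 3 (r from -0.17 to 0.06). The gene most like both Ccl17 (r = 0.92) and Ccl22 (r = 0.94) was Ggta1, which encodes a galactosyltransferase. For Ccl17 it was followed by Gstt3, Etv3, Prnp and the prostaglandin receptor gene Ptger4, and for Ccl22 by Mmp25, Tmem39a, Poglut1 and 1810064F22Rik. Among the genes most like Ccr7 were the semaphorin gene Sema7a (r = 0.94), Atl3, Il4i1, which belongs to the mature DC panel, and Mical3. Those most like Ccl24 were Ltc4s, the enzyme of leukotriene C4 synthesis (r = 0.84), Dnase1l1, Tcn2, Kcnk13 and Ly96. For Ccr4, which rested on few UMIs, they were Exph5 (r = 0.88), Tcrg-C2, Rgs8, Gm44174 and Dlg2.

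**Figure D5:**
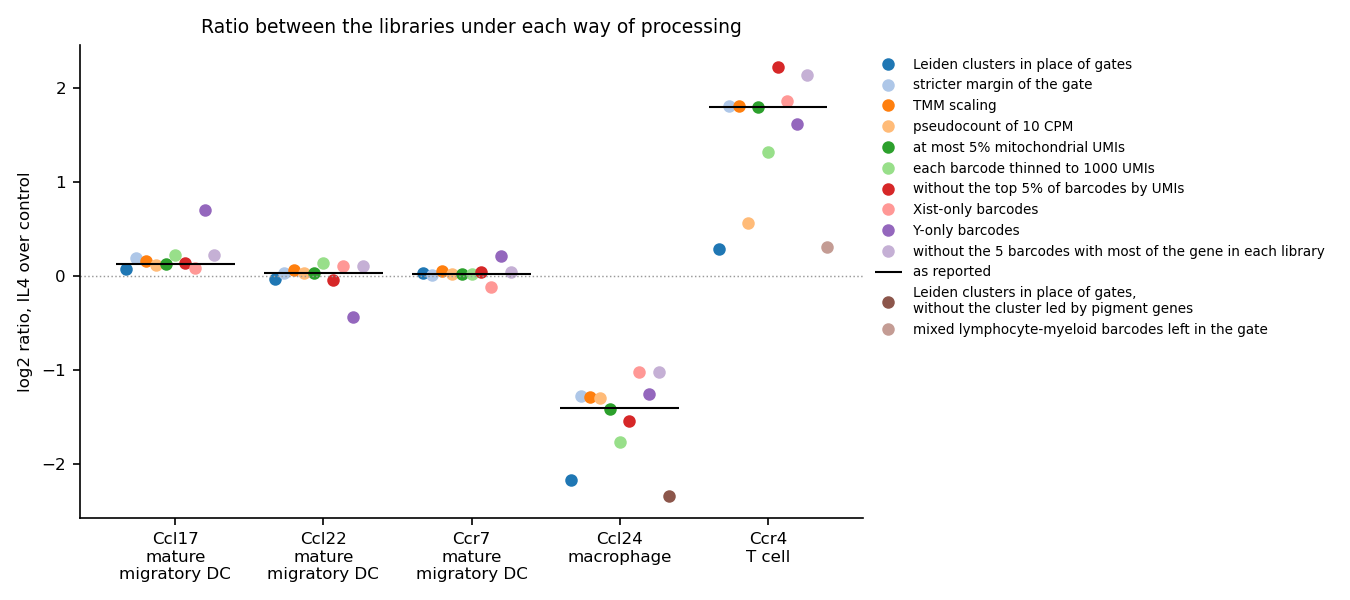
Log2 ratio of IL4 over control CPM for each gene in the gate where its level was of main interest, as reported (line) and under each other way of processing (points). Ccl24 in macrophages ranged from -2.35 to -1.02, and Ccr4 in T cells from 0.29 to 2.23.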

How the data were processed

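The data were 2 single-cell RNA libraries, 1 control and 1 IL4, of 8994 and 13873 barcodes and 32285 genes. The authors deposited raw UMI counts. They used Cell Ranger 7.2.0 with build mm10, as the submitters' processing notes say, and which annotation release they took is not stated in these sources. Groups were taken from the treatment label.

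A barcode was kept if it had at least 500 UMIs, at least 250 genes and no more than 10% mitochondrial UMIs (99.4% and 99.2% were), leaving 95361764 and 132885689 UMIs. The libraries shared 23 barcode sequences. No doublets were removed and no doublet caller was run; leaving out the top 5% of barcodes by UMIs stands as an alternative. Each barcode was scored on 13 marker panels as the mean z-score (limit of 5) of log counts per 10000 UMIs. The highest panel gave the gate if it reached 0.5 and led by 0.2. T and NK-gated barcodes with over 20 UMIs per 10000 in 8 myeloid genes were set apart as mixed. Clusters (Leiden, scanpy 1.11.5; 2000 variable genes, 30 components, 15 neighbours, resolution 1) were made without the 5 genes.

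UMIs were summed per library and type and given per 1000000 UMIs (CPM). Log2 ratios are of CPM plus 1, and a gene was tested for 1.5-fold if it had 20 UMIs. Intervals are exact 95% Poisson, binomial (Clopper-Pearson) or ratio intervals, and a count of 0 allows up to 3 counts. Shares of barcodes were compared after thinning each to 1000 UMIs, without shallower ones. Alternatives were the clusters, a stricter gate, TMM scaling (edgeR 4.0.16), a pseudocount of 10, a mitochondrial limit of 5%, thinning, and barcodes of 1 sexed kind. Scripts were checked on simulated data. The genes, lists and panels, and the limit for mixed barcodes, were chosen with earlier results of these data known. Named genes are the 5 genes, for each the 5 genes most like it among those reaching 20 CPM (a gene of this kind is not reported here), up to 4 genes per list with the largest ratio, and panel genes where they check a gate.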

Additional observations from a re-analysis of the deposited data

Results flagged for a closer look

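Ccl24 in mature migratory DCs went in opposite directions in the sexed kinds, a difference that was not tested. In Xist-only barcodes it stood at 12.7 and 39.0 CPM (25 and 185 UMIs), a log2 ratio of 1.55, and 140 of the IL4 UMIs lay in a single barcode. In Y-only barcodes it stood at 264 and 27.9 CPM (346 and 25 UMIs), a log2 ratio of -3.20, and 274 of the control UMIs lay in a single barcode.

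Ccl17 in undivided monocyte-macrophage barcodes also went in opposite directions, again untested. The log2 ratio was 0.60 in Xist-only barcodes (20 and 72 UMIs, 2.69 and 4.58 CPM) and -1.36 in Y-only ones (30 and 3 UMIs, 5.71 and 1.62 CPM), where 19 of the control UMIs lay in a single barcode.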

How the results depend on the processing

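Values are log2 ratios of IL4 over control, and the cause of each shift was not tested. Leaving out the 5 barcodes with most of a gene in each library, leaving out the cluster led by pigment genes, and counting mixed barcodes as T cells, were chosen after seeing the data.

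In mature DCs Ccl17 (0.13) was 0.71 (Y-only). Ccl22 there (0.03) was -0.036 with clusters, 0.14 thinned, -0.048 without the top 5% of barcodes, 0.10 (Xist-only) and -0.44 (Y-only), and 0.10 without the 5 barcodes. Ccr7 there (0.02) was -0.12 (Xist-only) and 0.21 (Y-only). Ccl24 in macrophages (-1.41) stayed negative under every alternative run: -2.18 with clusters (-2.35 without the cluster led by pigment genes), -1.28 with the stricter gate, -1.29 with TMM, -1.31 with a pseudocount of 10, -1.77 thinned, -1.54 without the top 5%, -1.03 (Xist-only) and -1.26 (Y-only), and -1.02 without the 5 barcodes. Ccr4 in T cells (1.80) was 0.29 with clusters, 0.57 with a pseudocount of 10 and 0.31 with mixed barcodes counted.

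Over all barcodes Ccl17 (0.15) was 0.30 thinned, 0.27 without the top 5%, 0.99 (Y-only) and 0.25 without the 5 barcodes. Ccl22 (0.30) was 0.45 thinned, 0.24 without the top 5%, 0.42 (Xist-only) and 0.39 (Y-only), and 0.36 without the 5 barcodes. Ccr7 (0.26) was 0.31 with TMM, 0.18 (Xist-only) and 0.87 (Y-only). Ccl24 (-1.47) was -1.42 with TMM, -1.31 with a pseudocount of 10, -1.29 thinned, -1.41 without the top 5%, -0.91 (Xist-only) and -1.58 (Y-only), and -1.44 without the 5 barcodes. A mitochondrial limit of 5% moved 0 of 10 ratios beyond counting error, TMM 3 and the Y-only barcodes 8.

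No paired analysis was possible because each group has 1 library. No replicate was left out for the same reason, and intervals show counting error, not the spread between mice. Ccr4, with 24 and 54 UMIs, is limited by depth.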

Other observations

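Some of the Ccl17 outside the DC gates lay in single barcodes. One ungated control barcode had 218 of the 550 ungated control UMIs. In the IL4 library the 1042 ungated UMIs, 19.1% of the gene's total, were spread over 157 barcodes, with 93 in the highest and 34.3% in the top 5. In the control 1 barcode of the mast cell or basophil gate had all 72 UMIs of that gate. In mixed barcodes Ccl17 stood at 13.3 and 27.9 CPM, with 70.8% and 72.1% of its UMIs in 5 barcodes. For Ccl22, 26 of the 53 IL4 UMIs in non-classical monocytes lay in a single barcode.

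Genes of the T helper 2 and regulatory T cell list were seen among mature DC-gated barcodes of the IL4 library. Of 6 such genes tested there 5 were higher and 0 lower (median log2 ratio 1.46). Among all 11140 genes tested in that gate 4.05% were higher, and the median was -0.01. Il5, a cytokine that eosinophils depend on, had 1 and 56 UMIs, Gata3, a T helper 2 regulator, 4 and 54, Ccl1 9 and 52 and the IL-33 receptor gene Il1rl1 2 and 21. The summed T cell panel in that gate stood at 49.5 and 82.1 CPM, with 5 of 10 genes higher, and its part in these values was not tested.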
